A study of Mus musculus with 13 samples.

Results

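mmu-miR-210-3p is the main mature product of the mouse hairpin Mir210. It was chosen by its name as the microRNA (miRNA) most closely tied to low oxygen, with earlier results of these data known. It is 1 of the 1079 mouse miRNAs on the array, and it was compared here between 7 melanomas from mice fed curcumin and 6 from mice fed standard chow. All tumors grew in the flanks of male C57BL/6 mice from injected B78H1 cells, an amelanotic line of the B16 mouse melanoma, and the labels name no genetic change of the mice. Curcumin mice received chow enriched with 4% curcumin from 14 days before the injection, control mice received chow of the same batch without it, and tumor growth was followed for 28 days. The RNA came from tissue samples of these tumors that hold mixed cells, so that fewer cells of a type and less of an miRNA per cell cannot be told apart.

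miR-210 is transcribed under the control of hypoxia-inducible factors, the transcription factors that accumulate when cells lack oxygen, and it is raised in poorly perfused tumors of many kinds. Among its established targets are the iron-sulfur cluster scaffold ISCU, through which it lowers mitochondrial respiration, the ephrin ligand EFNA3, which takes part in vessel growth, and GPD1L, whose loss favors the stability of HIF-1α. In melanoma and other solid tumors it is therefore often read as a marker of low oxygen.

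The Mir210 hairpin lies on the minus strand at chr7:141221384-141221493 (GRCm38.p6, sequences from RefSeq), between the genes Rassf7 and Gm51460, and overlaps 0 other genes of that annotation. It is shown first with the 3p arm in capitals, since both arms of this hairpin were measured. The mature arms follow with the seed, bases 2 to 8, in capitals, because the seed sets which messenger RNAs an miRNA can pair with.
Mir210 hairpin: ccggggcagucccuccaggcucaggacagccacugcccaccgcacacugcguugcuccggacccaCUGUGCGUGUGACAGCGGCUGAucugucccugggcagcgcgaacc
mmu-miR-210-3p: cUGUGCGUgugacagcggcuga
mmu-miR-210-5p: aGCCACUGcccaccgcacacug
Of the 1079 miRNAs on the array, 840 had a mature sequence under the same name, and 1 of these carried this 3p seed, mmu-miR-210-3p itself. No other measured miRNA with a known sequence therefore belongs to its seed family.

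The arrays carried 2 probes for each arm, each printed in 20 spots, and were hybridized with RNA of 1 tumor in 1 color. Summed over all mouse miRNAs, the background-subtracted signal was 114095 to 281508 in curcumin tumors and 150272 to 244666 in controls, and the number of detected miRNAs was 272 to 370 and 313 to 412, respectively. Of the 2 slides used, slide 1 carried 3 arrays of curcumin tumors and 2 of controls, and slide 2 carried 4 arrays per diet. Each diet had a line of array positions to itself on either slide, and therefore line and diet cannot be told apart.

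mmu-miR-210-3p was detected in all 13 tumors. All 260 spots of each of its probes were well above background and none was saturated. Its raw intensity, not yet scaled between arrays, had a median of 445 in curcumin tumors, with a range of 157 to 907, and a median of 624 in controls, with a range of 504 to 1001. The scanner software gave each of these values an error of about 7.2%, which is ±0.10 on the log2 scale.

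Values were next quantile normalized, a step that gives every array the same distribution, so that each value reflects the rank of the miRNA within its array. The normalized log2 intensity of mmu-miR-210-3p was 9.39, 9.32, 9.61, 9.61, 9.32 and 9.24 in control tumors 1 to 6. In curcumin tumors 1 to 7 it was 8.79, 9.24, 8.45, 9.19, 8.53, 9.15 and 8.66. The lowest control, tumor 6, and the highest curcumin tumor, tumor 2, held the same value because mmu-miR-210-3p had the same rank on both arrays, and the other 6 curcumin tumors lay below every control. The controls lay close together, whereas the curcumin tumors spread over a wider range.

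**Figure D1:**
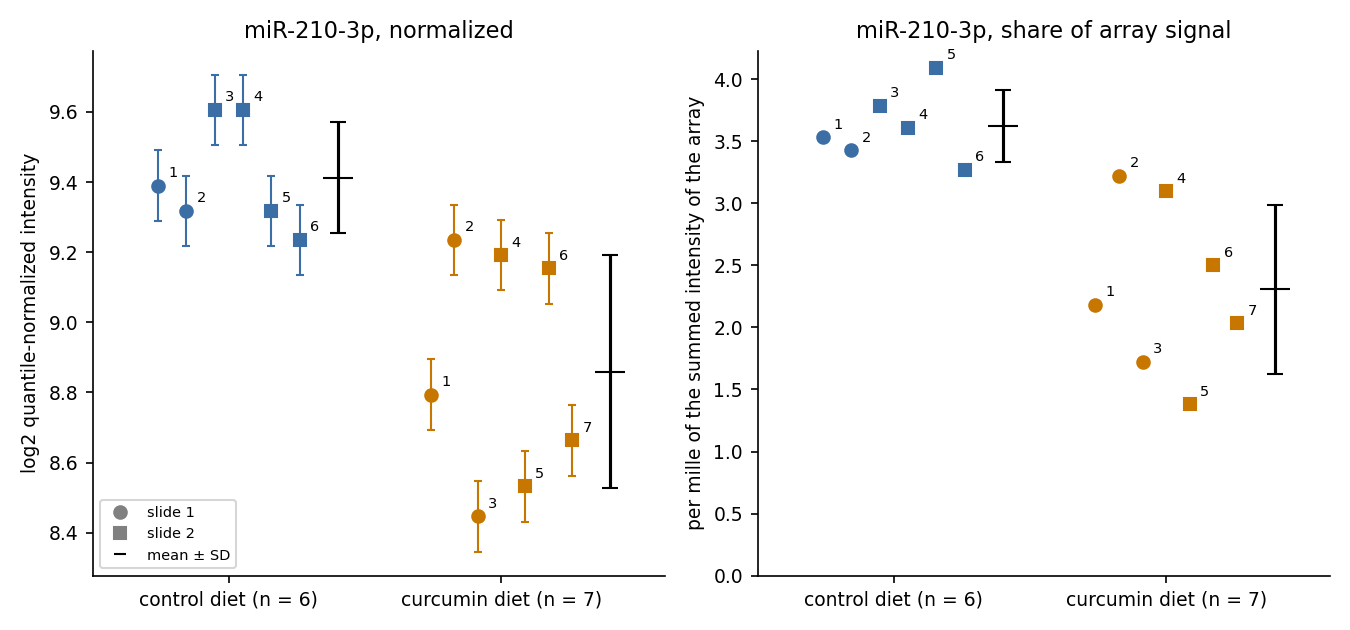
Left, log2 quantile-normalized intensity of miR-210-3p by diet, 1 point per tumor with its number, circles for slide 1 and squares for slide 2; bars on the points are the error given by the scanner software, and black bars are the mean ± SD of each diet. Right, the same tumors as per mille of the summed intensity of the array. Curcumin tumors lay at 8.45 to 9.24 on the left and controls at 9.24 to 9.61.

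mmu-miR-210-3p was lower in curcumin tumors, with a mean of 8.86 ± 0.33 (SD, n = 7) against 9.41 ± 0.16 (SD, n = 6) on the log2 scale. The difference, curcumin minus control, was −0.55 (SE 0.146; 95% interval −0.87 to −0.23), and the level in curcumin tumors was thus 0.682 times that of controls (interval 0.546 to 0.852). It passed the threshold of 0.05 with limma, a linear model that shares the spread between miRNAs, after Benjamini-Hochberg adjustment over all 1079 miRNAs (adjusted p = 0.0288). An exact permutation test on mmu-miR-210-3p alone gave a two-sided p of 0.00408. With 1716 possible splits into 7 and 6 tumors, the smallest p that this test can give is 0.000583. With limma, 15.8% of all miRNAs passed, 7.51% as lower and 8.34% as higher in curcumin tumors. Among the 243 miRNAs detected on all arrays, as mmu-miR-210-3p was, 41.6% passed, 21.4% as lower and 20.2% as higher. A lower value in curcumin tumors was therefore common among detected miRNAs, and 67 of the 243 had a more negative difference than mmu-miR-210-3p.

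Sorted from high to low, neighboring tumors mostly could not be ordered. Of the 12 steps between neighbors, 2 exceeded the combined error of the pair given by the scanner software, which covers the measurement on the array and not the spread between tumors. One was the step from controls 3 and 4 to control 1, and the other, of 0.36 on the log2 scale, was that from curcumin tumor 6 to curcumin tumor 1.

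As a share of the summed signal of its array, mmu-miR-210-3p made up 3.62 ± 0.29 per mille (SD, n = 6) in controls and 2.31 ± 0.68 per mille (SD, n = 7) in curcumin tumors. These shares were 1.38 to 3.22 in curcumin tumors and 3.27 to 4.09 in controls, so that the groups did not overlap on this scale, although the nearest tumors were close. The same held for 17.7% of the 243 always-detected miRNAs, 16.5% with the lower values in curcumin tumors. On the quantile-normalized scale, where mmu-miR-210-3p tied at 9.24, these shares were 11.9% and 3.7%. mmu-miR-3963, the most abundant miRNA, made up 18.9% to 39.0% of the summed signal and therefore weighs on such shares.

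Both probes of mmu-miR-210-3p gave the difference. Each was scaled by the normalization shift of their summed signal, and both measured the same RNA on the same arrays, so that they are not separate evidence. It was −0.53 (SE 0.139; exact permutation p = 0.00641) for probe A_54_P1443 and −0.59 (SE 0.144; exact permutation p = 0.0035) for probe A_54_P1444 on the log2 scale. The spots of a probe varied little within an array, with a median coefficient of variation of 5.43% and 4.63%, respectively. The largest was 22.9%, for the first probe in control 1. The log2 ratio of both probes was 0.58 ± 0.044 (SD) over the 13 arrays, with a range of 0.51 to 0.67, so that the brightness of both probes changed nearly in parallel over the tumors.

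Both slides showed the lower value as well. On slide 1 the mean log2 level of controls was 9.35 ± 0.051 (SD, n = 2) and that of curcumin tumors 8.82 ± 0.40 (SD, n = 3), a difference of −0.53. On slide 2 these means were 9.44 ± 0.19 (SD, n = 4) and 8.89 ± 0.34 (SD, n = 4), a difference of −0.56. By itself neither slide passed the limma threshold (adjusted p = 0.606 and 0.257), while the fit with slide as a block did (adjusted p = 0.0420). The diet difference on slide 2 minus that on slide 1 was −0.027 (SE 0.33; limma adjusted p = 1).

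The size of the difference depended on the scaling between arrays. With no normalization it was −0.56 but with an SE of 0.37 (limma adjusted p = 0.499). Scaling to the 75th percentile of the always-detected miRNAs gave −0.55 (limma adjusted p = 0.0229), and that of all miRNAs gave −0.33 (limma adjusted p = 0.549). The deposited log2 values, tested in the same way, gave −0.55 (limma adjusted p = 0.0201). A pair of scalings was added after seeing the data. Centering on the median of the always-detected miRNAs gave −0.36 (limma adjusted p = 0.402) and scaling to the summed signal gave −0.70 (limma adjusted p = 0.0251). These scalings also shift all other miRNAs. The median difference of the 243 always-detected miRNAs was −0.094 after quantile normalization and −0.41 to −0.037 with the other scalings. Relative to that median, mmu-miR-210-3p was lower by −0.46 after quantile normalization, by −0.45 with the deposited values, and by −0.30 with each of the scalings that multiply an array by 1 factor or leave it as it is. This last value is the same by arithmetic, because 1 factor per array shifts the difference of every miRNA alike. The difference before subtracting the median had the same direction on every scale, and the call was not the same.

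**Figure D2:**
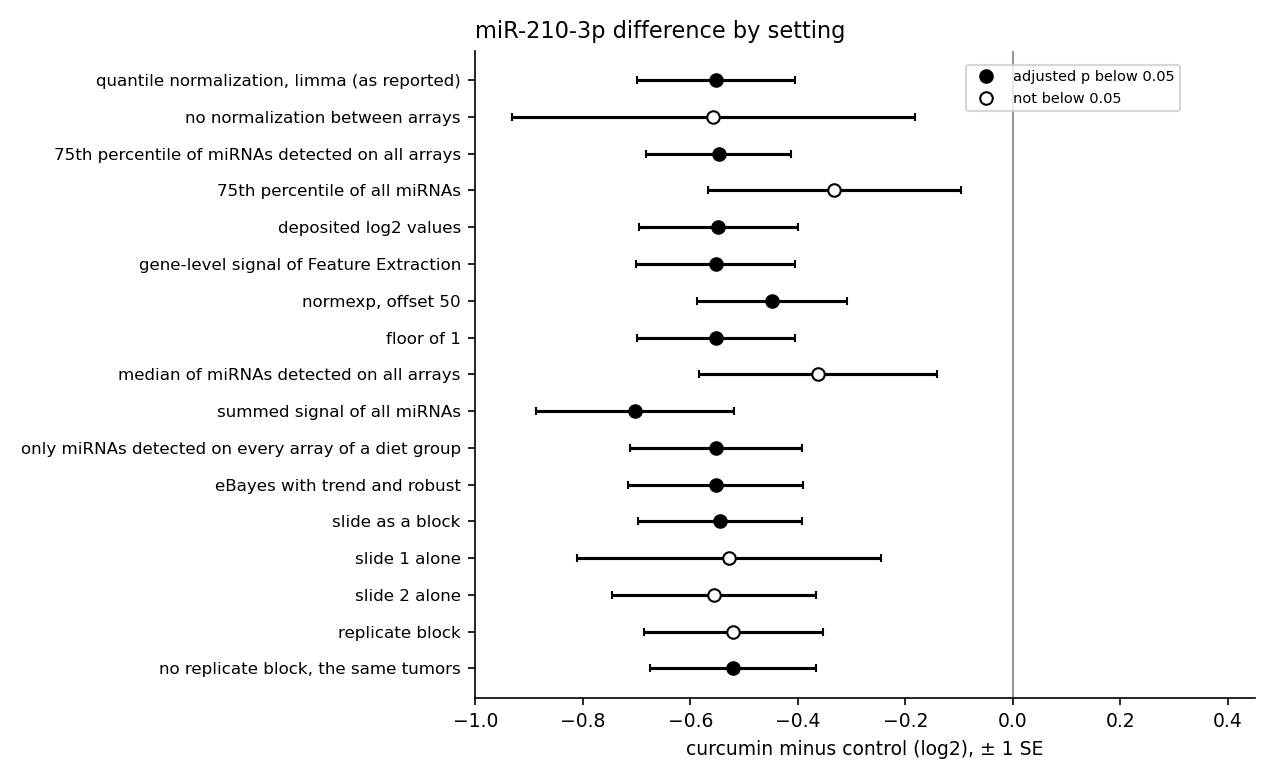
Difference in miR-210-3p between diets, curcumin minus control on the log2 scale, for each setting, with bars of ± 1 SE. Filled points passed an adjusted p of 0.05, and open points did not. Every point lies below 0, from −0.70 with scaling to the summed signal to −0.33 where the 75th percentile was taken over all miRNAs.

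Leaving out each tumor in turn, the difference was −0.61 to −0.48, with limma adjusted p of 0.0213 to 0.0636. The call was kept in 8 of 13 cases. It was lost without curcumin tumor 1 (adjusted p = 0.0585) or 3 (0.0506), and without control 2 (0.0527), 3 (0.0540) or 4 (0.0636), all by limma.

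The other arm of the hairpin, mmu-miR-210-5p, is the strand that is mostly degraded. The software called it detected in curcumin tumor 1 and in controls 3 and 5 alone. Of the 260 spots of each of its probes, 9 and 32 were well above background. Its raw intensity was 11.7, 1.69, 0.749, 0.289, −1.43, −0.214 and −0.568 in curcumin tumors 1 to 7, and 3.05, 2.61, 4.36, 1.48, 5.89 and 3.55 in controls 1 to 6. Most of these values are not well above background, so no fold change is given for this arm, and the groups overlapped.

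The list set beside mmu-miR-210-3p next was, like the other lists here, chosen with earlier results of these data known. It holds 14 further miRNAs that other studies described as raised by low oxygen. Of these, 7 rose in curcumin tumors and 0 fell by limma, with 8 higher and 2 lower at an unadjusted p under 0.05. With scaling to the summed signal, 5 rose and 2 fell. This 50.0% compares with 8.34% called higher among all miRNAs and 20.2% among those detected on all arrays. The list had a median difference of 0.38 on the log2 scale, against −0.094 for the always-detected miRNAs. mmu-miR-210-3p, which passed as lower, thus differed in sign from each list member that passed.

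Among the members that passed, mmu-miR-23a-3p rose by 0.35 (SE 0.083) and mmu-miR-23b-3p by 1.12 (SE 0.200). mmu-miR-27b-3p, which shares a cluster with mmu-miR-23b-3p, rose by 0.75 (SE 0.159). mmu-miR-26a-5p rose by 0.90 (SE 0.150) and mmu-miR-26b-5p, of the same family of growth-restraining miRNAs, by 0.93 (SE 0.184). mmu-miR-322-5p, the mouse counterpart of human miR-424 and a member of the family of miR-15 and miR-16, rose by 1.65 (SE 0.262). For these 6 the limma adjusted p was between 0.00348 and 0.0174. mmu-miR-181c-5p was detected in 5 of 7 curcumin and 0 of 6 control tumors, and passed as higher in the former (limma adjusted p = 0.0310). Its fold change is left out here, since its control values are not above background and its sign turned with no normalization, both percentile scalings and scaling to the summed signal. The other 6 were higher under every scaling. The groups did not overlap for mmu-miR-23b-3p, with 9.39 to 10.76 in curcumin tumors and 9.06 to 9.35 in controls. The other 7 members, mmu-miR-24-3p, mmu-miR-27a-3p, mmu-miR-103-3p, mmu-miR-107-3p and 3 of the miR-181 family, did not pass, with differences of −0.35 to 0.40 (limma adjusted p 0.0647 to 1).

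A list of 7 miRNAs that other studies described as repressors of Hif1a, the oxygen-regulated subunit of hypoxia-inducible factor 1, moved in both directions. In curcumin tumors 3 fell and 2 rose by limma, which together is 71.4% of the list, against 15.8% of all miRNAs and 41.6% of those always detected. The 3 that fell belong to the miR-17 clusters, which drive proliferation in many tumors. They were mmu-miR-18a-5p (−1.46, SE 0.267), mmu-miR-20a-5p (−1.13, SE 0.275) and mmu-miR-20b-5p (−0.82, SE 0.188), with limma adjusted p of 0.00500 to 0.0196. mmu-miR-155-5p, known from activated leukocytes, rose by 1.74 (SE 0.349; limma adjusted p = 0.00749). mmu-miR-199a-5p, abundant in fibroblasts and other mesenchymal cells, rose by 2.55 (SE 0.495; limma adjusted p = 0.00655). mmu-miR-17-5p had a difference of −0.79 (limma adjusted p = 0.102), and mmu-miR-429-3p was detected in no tumor. The 5 that passed kept their sign under every scaling.

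**Figure D3:**
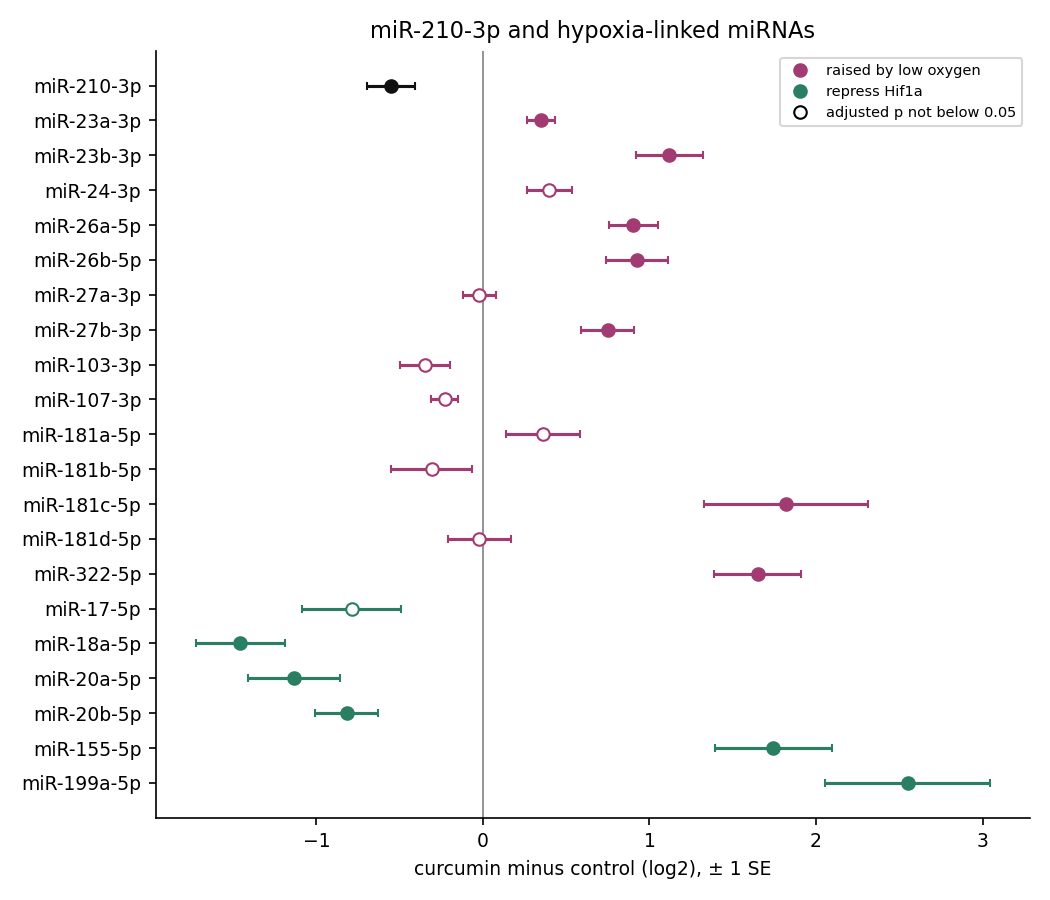
Difference between diets, curcumin minus control on the log2 scale with bars of ± 1 SE, for miR-210-3p (black), miRNAs described as raised by low oxygen (purple) and miRNAs described as repressing Hif1a (green); open points did not pass an adjusted p of 0.05. miR-429-3p, detected in no tumor, is left out. miR-210-3p lies at −0.55, and the filled purple points of the 6 members that were detected in all tumors lie at 0.35 to 1.65. The point of miR-181c-5p rests on control values not above background.

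Some markers of other cell types differed between the diets. Of 24 measured miRNAs in 7 marker lists, 7 rose and 1 fell in curcumin tumors by limma. This share of 33.3% lies between the 15.8% of all miRNAs and the 41.6% of those always detected. All 4 leukocyte miRNAs rose, and their summed raw intensity was 173 to 1511 in curcumin tumors and 76.9 to 325 in controls. Of 4 fibroblast and mural miRNAs 1 rose, mmu-miR-199a-3p (summed 190 to 1121 and 145 to 369), and of 4 skeletal muscle miRNAs 1 rose, mmu-miR-206-3p (33.0 to 1121 and 12.8 to 480). Of 6 epithelial miRNAs 1 rose, mmu-miR-205-5p, an miRNA of epidermis, and 4 were detected in no tumor (summed 92.0 to 2653 and −8.22 to 233). Neither of 2 endothelial miRNAs (144 to 1015 and 121 to 311) nor of 2 erythroid miRNAs (49.9 to 191 and 32.3 to 619) passed, and the remaining erythroid miRNA, mmu-miR-486-5p, was not matched on the array. Of 2 melanocytic miRNAs 1 fell, mmu-miR-211-5p, which is encoded in the melanocyte gene Trpm1, with summed intensities of 3.82 to 302 in curcumin tumors and 395 to 819 in controls. These sums are raw. On the normalized log2 scale the groups overlapped for mmu-miR-211-5p, with 1.54 to 9.27 in curcumin tumors and 8.26 to 9.72 in controls. The part of these cell types in the difference of mmu-miR-210-3p was not tested.

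The miRNAs that vary most like mmu-miR-210-3p from tumor to tumor were sought among the other miRNAs detected on all arrays. mmu-miR-3963 was left out because it held the top rank, and so the same normalized value, in every tumor, which left 241. The mean of each diet was subtracted first, so that a difference between diets does not create a correlation. The 5 miRNAs with the highest Pearson r over the 13 tumors were mmu-miR-24-3p (0.81), mmu-miR-1949 (0.76), mmu-miR-100-5p (0.75), mmu-miR-24-2-5p (0.73) and mmu-miR-23a-3p (0.73). The 3 lowest were mmu-miR-5126, mmu-miR-3968 and mmu-miR-3102-5p, with −0.66 each. With tumors permuted within each diet, 0 of the 241 passed the adjusted threshold and 23 had an unadjusted permutation p under 0.05, so that the 8 named here are the extremes of the ranking and none passed by r. This count depended on the scaling. It was also 0 with the 75th percentile of the always-detected miRNAs and with the deposited values, but 160 with no normalization, 60 with the percentile of all miRNAs, 48 with median centering and 21 with the summed signal. mmu-miR-24-3p passed under these last 4 scalings (r of 0.92 to 0.98). With no normalization, where the brightness of each array stays in all its values, the r of each of the 3 lowest turned positive. The sequences of those found in RefSeq are shown, again with the seed in capitals, since several come from 1 hairpin cluster and the lowest one stands out by its composition.
mmu-miR-24-3p: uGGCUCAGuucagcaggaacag
mmu-miR-24-2-5p: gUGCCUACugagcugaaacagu
mmu-miR-23a-3p: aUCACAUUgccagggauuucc
mmu-miR-100-5p: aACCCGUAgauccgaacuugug
mmu-miR-5126: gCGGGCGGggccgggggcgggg
mmu-miR-3968: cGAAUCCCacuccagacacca
mmu-miR-3102-5p: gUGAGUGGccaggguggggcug
None of them shares its seed with mmu-miR-210-3p. mmu-miR-23a-3p and both arms of Mir24-2 come from a cluster in which the hairpins of Mir23a, Mir27a and Mir24-2 lie within 404 bases of chromosome 8, and mmu-miR-24-3p is also made from Mir24-1 on chromosome 13. The mature sequence of mmu-miR-5126 consists of G and C alone (100% GC), against 63.6% for mmu-miR-210-3p and a median of 50% over the compared miRNAs with a sequence.

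mmu-miR-24-3p, which restrains cell cycle genes, had the highest r, 0.81 (permutation p = 0.00305, adjusted p = 0.360; Spearman's rho 0.86, permutation p = 0.00146, adjusted p = 0.117). Its log2 level was 12.03, 12.28, 11.80, 12.13, 11.38, 12.13 and 11.80 in curcumin tumors 1 to 7 and 11.61, 11.48, 11.80, 11.48, 11.38 and 11.48 in controls 1 to 6. In both miRNAs curcumin tumors 2, 4 and 6 were the highest of their diet, and in both curcumin tumors 3, 5 and 7 were the lowest. The r was 0.85 within the curcumin tumors (n = 7) and 0.59 within the controls (n = 6). Without curcumin tumors 3 and 5, the pair whose mmu-miR-210-3p level lay farthest from the median, it was 0.78.

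mmu-miR-100-5p, a regulator of mTOR and of insulin-like growth factor signaling, had an r of 0.75 (permutation p = 0.00359, adjusted p = 0.360) and a rho of 0.87 (permutation p = 0.000190, adjusted p = 0.0458). It was the 1 miRNA of 241 to pass by rho. Its log2 level was 8.38, 8.63, 7.97, 8.48, 7.21, 8.48 and 8.14 in curcumin tumors 1 to 7, and 7.45, 6.89, 7.54, 7.19, 7.07 and 7.11 in controls 1 to 6. Curcumin tumor 5 thus lay within the range of the controls and the other curcumin tumors above it. The r was 0.79 within curcumin tumors and 0.60 within controls, and 0.70 without curcumin tumors 3 and 5.

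The other 3 of the highest had an r of 0.77 to 0.86 within curcumin tumors and of 0.46 to 0.65 within controls, and kept 0.64 to 0.73 without curcumin tumors 3 and 5. Their permutation p was 0.00917 to 0.0164 (adjusted p = 0.360 each) and their rho 0.78 to 0.82. The 3 lowest had −0.86 to −0.71 within curcumin tumors and −0.49 to −0.19 within controls, with permutation p of 0.0109 to 0.0337 (adjusted p 0.360 to 0.451), a rho of −0.69 to −0.56, and −0.67 to −0.52 without those tumors. For all 8 miRNAs, r was thus larger in size within the curcumin tumors. mmu-miR-210-3p varied more over these tumors, so that they weigh most in the r by which the 8 were chosen. The larger r within curcumin tumors therefore follows in part from that choice. The difference in r between diets was not tested.

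**Figure D4:**
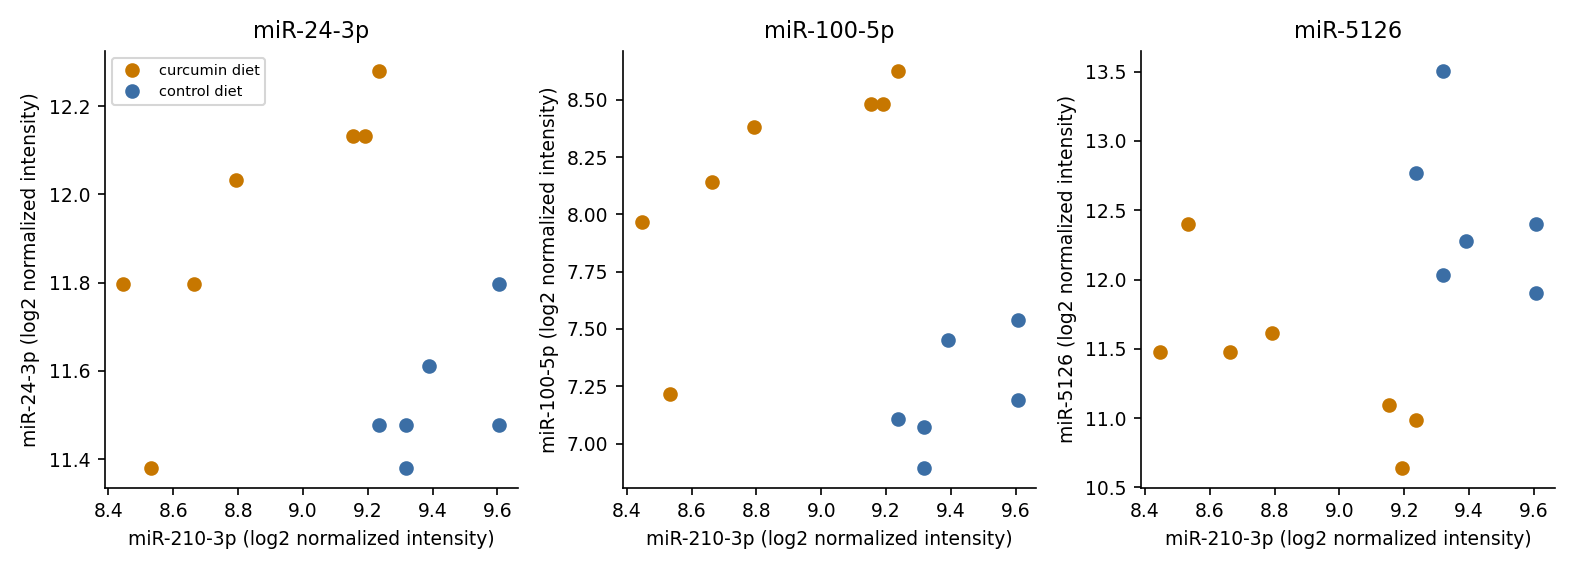
Log2 normalized intensity of miR-24-3p, miR-100-5p and miR-5126 against that of miR-210-3p, 1 point per tumor, orange for curcumin and blue for control. Within each diet the first and second panels rise (r of 0.59 to 0.85) and the third falls (r of −0.79 and −0.49), while the curcumin points lie to the left of most control points.

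For the 5 most alike, likeness within a diet went with opposite differences between diets. The compared miRNAs as a whole leaned the same way. Across them, the difference between diets and the diet-centered r had a Pearson correlation of 0.55, although miRNAs of the same arrays are not independent. Of the 5 most alike, mmu-miR-100-5p was higher in curcumin tumors by 0.98 (limma adjusted p = 0.0117), mmu-miR-24-2-5p by 1.00 (0.0103) and mmu-miR-23a-3p by 0.35 (0.0174), whereas mmu-miR-210-3p was lower. mmu-miR-24-3p (0.40, adjusted p = 0.0647) and mmu-miR-1949 (0.11, adjusted p = 1) did not pass with limma. With the diet means kept, r was therefore −0.092 for mmu-miR-24-3p, −0.30 for mmu-miR-100-5p, −0.32 for mmu-miR-24-2-5p and −0.28 for mmu-miR-23a-3p, and stayed above 0 for mmu-miR-1949 (0.39). Over all tumors with the diet means kept, the highest r belonged to mmu-miR-301a-3p (0.71), mmu-miR-3096b-5p (0.70) and mmu-miR-324-5p (0.64), and the lowest to mmu-miR-199a-3p (−0.72), mmu-miR-199a-5p and mmu-miR-223-3p (−0.70 each). These 6, chosen after their values were seen, did not pass the adjusted permutation threshold (adjusted p 0.334 to 0.388). The last 3 are the mesenchymal and leukocyte miRNAs that rose in curcumin tumors.

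**Figure D5:**
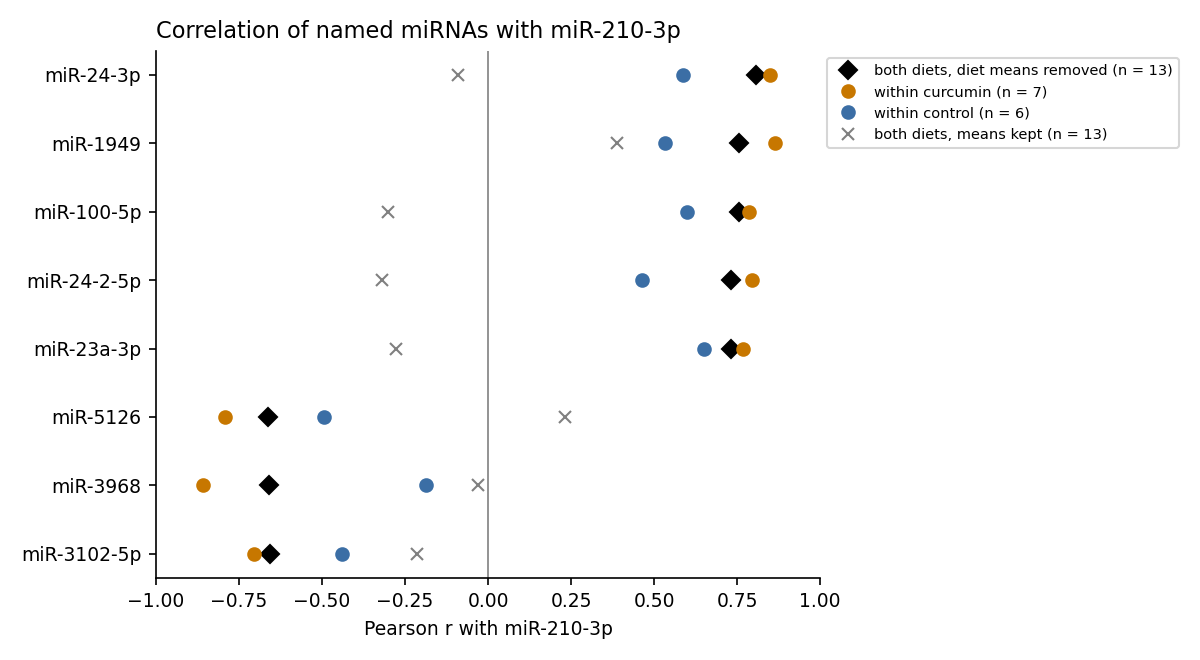
Pearson r with miR-210-3p of the 5 most alike and 3 least alike miRNAs, with the diet means removed (black), within curcumin tumors (orange), within controls (blue) and with the diet means kept (grey crosses). For 4 of the 5 most alike, r is 0.73 to 0.81 with the means removed and −0.32 to −0.092 with them kept.

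The r with mmu-miR-210-3p is given next for the list of miRNAs raised by low oxygen, none of which passed the adjusted threshold. All 12 that were detected on all arrays had a diet-centered r above 0, with a median of 0.53 and a range of 0.095 to 0.81, while 114 of the 241 compared miRNAs did and the median of these was −0.034. Within curcumin tumors 11 of the 12 had an r above 0 (−0.12 to 0.85), against 107 of the 241 compared miRNAs. Within controls 8 of the 12 did (−0.42 to 0.65), against 159 of the 241, which is a similar share. mmu-miR-23b-3p had an r of 0.65 within curcumin tumors and −0.42 within controls, mmu-miR-322-5p 0.59 and −0.33, and mmu-miR-26a-5p 0.67 and −0.19. Of the 6 always-detected Hif1a repressors 1 had a diet-centered r above 0, and their median was −0.24. Of the 6, 2 had an r above 0 within curcumin tumors (median −0.37), against 107 of the 241 compared miRNAs (median −0.15). In controls 4 of the 6 did (median 0.32), against 159 of the 241 (median 0.22). The compared miRNAs as a whole thus differed between the diets in the same direction. These miRNAs share the same 13 arrays, and several are made from the same transcripts. Across the compared miRNAs, r also tended to be higher where the difference between diets was higher (Pearson correlation 0.55).

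The brightness of the arrays moved with these values. The diet-centered r of mmu-miR-210-3p with the log2 summed signal of the array was 0.56 (rho 0.42), 0.78 within curcumin tumors and −0.23 within controls. Curcumin tumor 5 had both the lowest summed signal, 114095, and one of the lowest mmu-miR-210-3p levels. The r with the summed signal was 0.15 for mmu-miR-1949, 0.28 for mmu-miR-23a-3p, and 0.43 to 0.57 for the others of the 5 most alike, and −0.59 to −0.43 for the 3 least alike. Over the 187 compared miRNAs with a sequence, GC content and diet-centered r had a Pearson correlation of −0.46 across miRNAs, which all share these arrays and are not independent. The part of array brightness and of base composition in the co-variation was not tested.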

How the data were processed

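The data were miRNA arrays of 13 flank tumors, 1 array per tumor, grouped by the sample labels. The authors hybridized Cy3-labeled RNA in 1 color and obtained background-subtracted intensity values per probe and a detection call per miRNA with Feature Extraction (version 10.10.1.1, from the submitters' processing notes). The authors also deposited normalized log2 values of the same arrays, used here as an alternative. The group sizes equal the numbers of mice that the study's methods give, and both flanks of each mouse were injected. The labels do not say which mouse or flank each tumor came from. Tumors are the replicates here, and any that shared a mouse would not be independent.

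Probe signals of each of 1079 mouse miRNAs were summed, and 57 virus miRNAs were left out. The sums were quantile normalized over all arrays, as in the study's methods. Of 14027 values, 7215 were not above 0 and received the smallest positive value, 0.00765, before log2. limma (lmFit, eBayes; version 3.58.1 under R 4.3.3) compared the diets in a two-sided test without covariates over all miRNAs. Its p-values were adjusted after Benjamini and Hochberg, and the threshold was 0.05. Single values were compared with an exact permutation test. The limma step was tested on simulated data. Correlations used the 243 miRNAs detected on all arrays and 100000 permutations within diet. No 2 arrays held equal values. The number of arrays limits the precision.

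The miRNAs named are both arms of Mir210, the 5 highest and 3 lowest by diet-centered r, and the members of both hypoxia lists, with cell type lists given by counts. mmu-miR-210-3p and the lists were chosen with earlier results of these data known. Alternatives were other scalings, background correction, floor, filter and tests (the methods' t-test among them), each probe by itself (with the normalization shift of the summed signal), the slide or replicate number as a block, each slide by itself and each tumor left out. Names follow the array design, and positions come from the RefSeq table of GRCm38.p6 alone.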

Additional observations from a re-analysis of the deposited data

Results flagged for a closer look

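In curcumin tumor 1 the raw intensity of mmu-miR-210-5p was 11.7, far from the other 6 curcumin tumors, which lay between −1.43 and 1.69. The gap to the nearest of them was 0.763 of the range of the group, above the 95% critical value of Dixon's test. It was the only curcumin tumor in which this arm was detected. Of 20 groups of values tested in this way 1 stood out, and chance gives about 1 in 20.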

How the results depend on the processing

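The lower level of mmu-miR-210-3p in curcumin tumors kept its direction under all alternatives run, with differences of −0.70 to −0.33. The call was lost with no normalization (−0.56), with the 75th percentile of all miRNAs (−0.33), with median centering (−0.36, added after seeing the data), on slide 1 (−0.53) and slide 2 (−0.56) by themselves, which hold fewer tumors, and with the replicate number as a block (−0.52, limma adjusted p = 0.133, against 0.0489 without the block on the same tumors). The numbers were not taken to pair tumors: the correlation of deviations was −0.30 to 0.20 over 6 pairs, and 0 curcumin tumors correlated best with their own number. Leaving out 1 tumor gave −0.61 to −0.48. With no normalization, slide 1, slide 2 and the replicate block, in this order, the calls by limma were 0, 1, 0 and 4 in the list raised by low oxygen (7 as reported; 4 and 7 unadjusted where 0). In the Hif1a list (5 as reported) they were 2 on slide 1, 0 on slide 2 (3 unadjusted), 1 with the block, and 3 with the percentile of all miRNAs and with median centering. In the other cell type lists (8 as reported) they were 3, 1 and 0 (9 unadjusted) with no normalization and on slides 1 and 2, and 4 to 10 with 1 tumor left out, 4 each without curcumin tumor 1 or 6 or control 1 or 4. Of all miRNAs, 171 passed as reported, 49 with no normalization, 105 with the percentile of all miRNAs, 102 with the software's own miRNA signal, 34 and 3 on slides 1 and 2, 67 with the block, and 102 to 184 with 1 tumor left out (102 without control 2). Co-varying miRNAs past the adjusted permutation threshold were 0 as reported, 1 by rho, 160 with no normalization, 60 with the percentile of all miRNAs, 48 with median centering and 21 with the summed signal, the latter pair added after seeing the data. The r of the named miRNAs turned sign with the diet means kept for mmu-miR-24-3p (−0.092), mmu-miR-100-5p (−0.30), mmu-miR-24-2-5p (−0.32), mmu-miR-23a-3p (−0.28) and mmu-miR-5126 (0.23). It also turned with no normalization for mmu-miR-5126 (0.37), mmu-miR-3968 (0.80) and mmu-miR-3102-5p (0.40), and for mmu-miR-3968 with the percentile of all miRNAs (0.49) and median centering (0.17). The cause was not tested where none is named. Signals near the background limit mmu-miR-210-5p.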
